A study of Mus musculus with 26 samples.

Results

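Mouse embryos begin to make their own RNA around the first cleavage, and 140 of the 24412 genes in the deposited tables met a rule for strong new transcripts at that time. They were chosen by their TPM without injection: their mean in control MII oocytes (unfertilised eggs) lay under 0.5 TPM, and both control libraries of early 2-cell embryos (E2C) reached 10 TPM. TPM is a length-corrected share of each library's RNA, scaled to the same total in every library. Genes whose symbols start with Zscan4, Obox, Usp17l, Tdpoz, Tcstv, Dux, Oog, Pramel, Mir or Sno were left out, which removed 28 genes that met the TPM rule. By their mean in control late 2-cell embryos (L2C), 77 members lay below and 63 above their mean in control E2C. Levels in control MII and E2C, which set the membership, and differences between control E2C and L2C, which set the split, are given as description, with no test. Control L2C had no part in the membership and serves as the control for mDKO embryos at L2C, where counts by side of the split are again description.

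The 26 libraries, all C57BL/6J and 2 per group, came from pools of 12 to 20 oocytes or embryos, and from 20 in the case of L2C. Females with Zp3-Cre, a recombinase driven by an oocyte promoter, and the alleles Kdm3af/f and Kdm3bf/f gave oocytes that met wild-type sperm in a dish. The embryos, which lack KDM3A and KDM3B from the oocyte, are called mDKO. Their genomes keep a paternal allele of each gene, and the females that gave the control oocytes are not described in the labels. Uninjected control and mDKO samples covered MII, E2C and L2C. The L2C labels carry the mDKO genotype, but no breeding protocol, and their titles read DKO. At E2C a further 4 groups had been injected: control with mCherry, and mDKO with mCherry, Kdm3aWT or Kdm3aHA. At the 4-cell stage (4C), wild-type embryos had been injected with mCherry, Kdm3aWT or Kdm3aHA. The sources used here give no meaning for HA and no dose of RNA.

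Genome activation in the mouse starts with a minor wave in the zygote and early 2-cell embryo and continues with a major wave in the late 2-cell embryo. Many genes of the minor wave sit in recently duplicated tandem families and lie beside or start within retrotransposons, and many fall silent again before the 4-cell stage. KDM3A and KDM3B remove mono- and dimethylation from lysine 9 of histone H3 (H3K9), a mark of silent chromatin that also covers much of the oocyte genome.

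Some members shared letters in their promoters, which the rule did not use. RefSeq (GRCm38.p6) gave a window of 300 bases, 250 before to 50 after the transcript start, for 100 members, 94 of them distinct. The letters GATTNAATC, the type bound by the 2-cell homeobox factor DUX, occurred on either strand in 10 of the 100 members, against 0.281% of 27025 promoters and 0.349% of 4016 genes at 10 TPM or more in both control E2C libraries. Counting distinct sequences, they occurred in 7 of 94. TAATCC, the type bound by OBOX and OTX homeobox factors, occurred in 19% of members, 7.16% of all promoters and 6.18% of the genes at 10 TPM or more, and the DUX-type letters can overlap it. CCAAT occurred in 54% of members, 37.9% of all promoters and 41.5% of the genes at 10 TPM or more, and GGGCGG, the GC box, in 25%, 35.9% and 62.8%. In the same order, TATAAA occurred in 15%, 14.2% and 7.84%, TGCACAC of the ZSCAN4 type in 5%, 4.19% and 3.61% and AAGGTCA of the NR5A2 type in 6%, 4.66% and 3.19%. The ratio of observed to expected CG had a median of 0.209 in members, 0.389 in all promoters and 0.798 in the genes at 10 TPM or more in control E2C. A match is a description of letters in the window and not a bound site.

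These 5 promoters are shown because they carry the letters in different arrangements and belong to members that the comparisons below turn on. They run 5′ to 3′ on the gene's strand, and capitals mark every match to the 7 sets of letters on either strand.
Zfp352 (chr4:90218570-90218869, plus strand): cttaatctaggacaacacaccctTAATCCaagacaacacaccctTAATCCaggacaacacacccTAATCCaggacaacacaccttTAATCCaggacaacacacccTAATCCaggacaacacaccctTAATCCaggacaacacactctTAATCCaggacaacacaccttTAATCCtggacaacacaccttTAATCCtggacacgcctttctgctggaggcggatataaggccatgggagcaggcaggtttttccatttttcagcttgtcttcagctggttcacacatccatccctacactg
AF067061 (chr13:120262845-120263144, plus strand): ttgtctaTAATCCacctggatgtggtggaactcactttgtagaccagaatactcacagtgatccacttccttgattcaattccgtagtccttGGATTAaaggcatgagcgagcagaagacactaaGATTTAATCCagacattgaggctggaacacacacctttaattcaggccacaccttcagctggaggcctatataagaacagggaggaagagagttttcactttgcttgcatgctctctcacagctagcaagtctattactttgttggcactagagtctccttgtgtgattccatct
Gm20765 (chr10:104185283-104185582, plus strand): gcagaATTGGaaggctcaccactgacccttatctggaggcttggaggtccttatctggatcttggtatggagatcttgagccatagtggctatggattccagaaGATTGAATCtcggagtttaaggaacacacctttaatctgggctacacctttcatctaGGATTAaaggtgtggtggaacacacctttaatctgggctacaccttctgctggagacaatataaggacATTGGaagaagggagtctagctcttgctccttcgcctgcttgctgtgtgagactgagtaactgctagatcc
Gm4027 (chr12:87618659-87618958, plus strand): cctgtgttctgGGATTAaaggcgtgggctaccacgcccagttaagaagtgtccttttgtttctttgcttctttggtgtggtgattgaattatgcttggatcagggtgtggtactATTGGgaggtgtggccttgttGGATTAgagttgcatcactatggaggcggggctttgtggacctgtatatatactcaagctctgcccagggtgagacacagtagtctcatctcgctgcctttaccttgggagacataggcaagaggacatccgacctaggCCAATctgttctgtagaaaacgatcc
Gm21319 (chr12:87775706-87776005, minus strand): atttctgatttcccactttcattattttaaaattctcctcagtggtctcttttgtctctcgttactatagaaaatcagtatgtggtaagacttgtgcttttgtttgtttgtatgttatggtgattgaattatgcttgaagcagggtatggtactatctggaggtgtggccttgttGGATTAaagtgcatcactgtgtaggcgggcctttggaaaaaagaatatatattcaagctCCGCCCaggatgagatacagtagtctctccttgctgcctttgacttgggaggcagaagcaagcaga
The Zfp352 window held 9 copies of TAATCC, between 227 and 61 bases before the start. In AF067061 the DUX-type letters overlapped 1 of 3 copies of TAATCC. Gm20765 held 1 DUX-type match and 1 separate copy of TAATCC, and Gm4027 and Gm21319 held 2 and 1 copies of TAATCC. The windows of Gm4027 and Gm21319, members of 1 cluster, were 79.7% identical, and the other pairs shown were between 49.8% and 69.5% identical, over aligned bases with gaps left out.

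Of the 140 members, 135 matched a RefSeq gene, 100 of them protein-coding and 22 long non-coding RNAs. Symbols of predicted genes or clones made up 68 members, 45 of the 77 below the split and 23 of the 63 above it, and a further 2 had placeholder symbols, LOC100502896 and LOC100862015. The number in LOC100862015 is the RefSeq gene ID of Gm11236, so that both entries appear to name 1 gene, which the tables list separately and the 140 count as 2. By the longest transcript of each gene (GENCODE M21), 21.8% of members with exons and 6.73% of the genes at 10 TPM or more in control E2C had a single exon. Other transcripts of the same genes were not counted and may have more exons. The RefSeq symbols of 5 members (A430089I19Rik, B020004J07Rik, Gm13078, Gm7978 and Pramef25) place them among the Pramel genes, a leucine-rich repeat family that the rule left out by older symbols. Runs of neighbours (GRCm38.p6) held 24 members. The largest run, chr12:87514316-88321762, held Gm8300, Gm4027, Gm16381, Gm21319, BB287469, Gm2016, Gm2022, Gm5662 and Gm5039. Their coding sequences were between 76.7% and 95.1% identical (median 94.2%) to that of Eif1a, which encodes the translation initiation factor eIF1A that helps the small ribosomal subunit scan for a start codon. A further pair of runs, of 6 members each, lay on chromosome 10, Gm4301 to Gm4312 at chr10:100335676-100382560 and Gm21293 to Gm20765 at chr10:104142987-104188000, with aligned coding bases at least 98.8% and 100% identical within each. All identities of coding sequences count aligned bases only and leave out gaps. Coding lengths differed within both runs, for example 798 bases in Gm21293 and 783 in Gm21304. A run of 3, Gm13043, Gm13078 and Pramef25, lay at chr4:143511343-143951016. In 5 sets, 13 members had the same values in all 26 libraries, which left 132 distinct profiles, so values of such near-identical copies share reads and are uncertain for the single gene.

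Replicates correlated across all genes with r between 0.945 and 0.991, the lowest in 4C mCherry, and depth is unknown because TPM keeps none. Control MII libraries held Kdm3a at 8.08 and 8.83 TPM and mDKO MII libraries at 0.725 and 0.718 TPM, and Kdm3b at 26.6 and 24.97 against 1.75 and 1.87 TPM. After injection, Kdm3a stood at 4122 and 2315 TPM with Kdm3aWT and 4043 and 3907 TPM with Kdm3aHA in mDKO E2C, against 0.262 and 0.411 TPM with mCherry. At L2C it stood at 34.1 and 43.8 TPM in control and 28.4 and 26.3 TPM in mDKO embryos. The 12 oocyte markers were at 1 TPM or more in every MII and 2-cell library. Nothing in the labels ties the 2 pools of a group to separate females or dates, so p-values measure only the spread between these pools, which may be technical. In pooled embryos, fewer embryos with a transcript and less of it in each cannot be told apart.

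By the rule, the median member stood at 0 TPM in both control MII libraries and at 25.5 and 27.1 TPM in the control E2C libraries. The labels give MII and E2C different kits, so stage and kit cannot be told apart in the contrast that set the membership. A low MII value may therefore reflect the kit as well as the stage, and the part of the kit was not tested. The 140 members together took 0.694% and 0.753% of all TPM in control E2C and 1.69% and 1.51% in control L2C. The highest in control E2C were Vaultrc5, a vault RNA, at 584 and 479.6 TPM and Gm4027 at 431 and 630.0 TPM. At L2C the highest was Crxos, a homeobox gene on the opposite strand of Crx, which went from 26.4 and 39.3 TPM in control E2C to 3826 and 3276 TPM in control L2C. The strand setting was not stated, and whether reads of Crx enter the Crxos values was not examined. Gm16381, of the chromosome 12 run, went from 53.8 and 66.9 to 1664 and 1192 TPM. Of the members below the split, A430089I19Rik, a Pramel gene, went from 209 and 262 to 35.7 and 36.5 TPM and Gm4302 from 35.6 and 29.5 to 2.26 and 9.56 TPM. Both stood lower at L2C than at E2C in both control libraries, which placed them below the split.

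**Figure D1:**
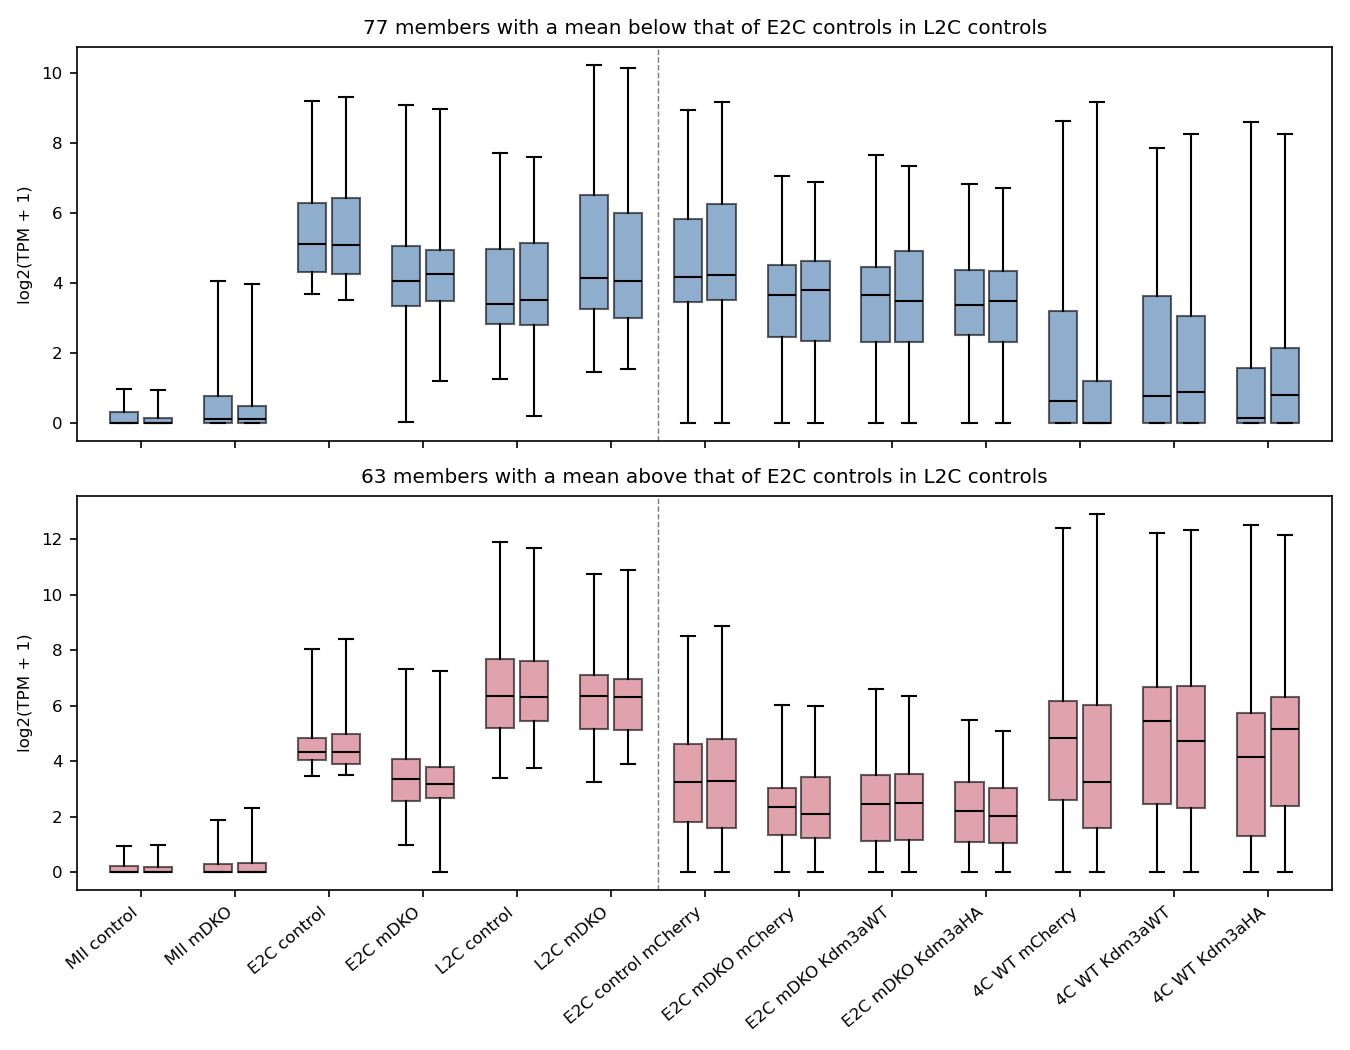
Box plots of log2(TPM + 1) over the members in each of the 26 libraries (2 boxes per group), the 77 members below the split above and the 63 above it beneath; boxes span the quartiles, lines mark medians and whiskers the lowest and highest member, and the dashed line separates uninjected from injected groups. Medians in both mDKO E2C libraries lie under both controls, and at 4C most members below the split are near 0.

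Members just inside the E2C threshold were Rmi2, a subunit of the BLM helicase complex, at 10.1 and 10.4 TPM, Gm13247 at 10.1 and 10.5 TPM and Hba-a1, an alpha-globin gene, at 10.3 and 17.7 TPM. Gm6083 at 12.4 and 10.6 TPM and Gm12238 at 20.1 and 10.7 TPM followed. Just outside it were Gm9 at 9.93 and 16.3 TPM and Rnd3 at 10.8 and 9.92 TPM. At the MII limit Suv39h1, which trimethylates H3K9, was among the members closest to 0.5 TPM, at 0.338 and 0.604 TPM, and at 22.7 and 21.7 TPM in control E2C.

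Uninjected mDKO embryos share the contrast that chose the members, so their values are a description. The median member stood at 12.4 and 12.5 TPM in the mDKO E2C libraries, and the members' share of TPM was 0.347% and 0.343%. Both mDKO libraries lay below both controls for 101 members and above them for 13, where 31.3% and 26.0% of all 11140 genes at 1 TPM or more in 2 of these libraries did so. Gm4027 stood at 72.5 and 72.2 TPM, Gm5662 at 30.6 and 30.1 TPM and Zfp352, a zinc finger gene widely used as a 2-cell marker, at 17.3 and 20.5 TPM in mDKO E2C, all under their controls. Vaultrc5, at 540.5 and 499 TPM, overlapped its controls, and Gm12238, at 63.9 and 34.0 TPM, lay above both. In mDKO MII oocytes 2 entries reached 10 TPM in both libraries, Gm11236 at 15.6 and 14.9 TPM and LOC100862015 at 14.4 and 10.7 TPM, the pair that appears to be 1 gene.

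The injected E2C embryos had no part in the rule, so the effect of the maternal deletion on the members was tested there. Members were lower in mDKO than in control embryos injected with mCherry: of 130 tested, 76 were lower and 6 higher at an adjusted p under 0.05 (limma), where 20.0% of all 10960 genes tested were lower and 26.9% higher. The median log2 fold change was -1.01 over the members tested and 0.04 over all genes tested. Fold changes are differences of log2(TPM + 1), which understate the change of low genes. On both sides of the split more members were lower than higher, 38 lower and 2 higher of 75 tested below it, and 38 lower and 4 higher of 55 tested above it. Filtering on low values left out 10 members, among them Defb8, Gm12238, Uchl4 and Omd. A further 11 members reached 1 TPM in only 1 of these groups, 5 in mDKO and 6 in control, and a gene that passes through the group where it is high has to differ. Over the 119 members at 1 TPM or more in both groups, 72 were lower and 3 higher, where 19.8% and 25.04% of 9645 such genes were, with a median log2 fold change of -1.02 in these members. At least 2-fold changes on this scale numbered 61 lower and 5 higher. With 1 member per set of identical values, 72 were lower.

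All 9 members of the Eif1a-like run on chromosome 12 were lower, with a median log2 fold change of -2.46. Gm4027 stood at 494 and 571 TPM in control and 104 and 94.3 TPM in mDKO embryos, a log2 fold change of -2.41 ± 0.13 (SE; adjusted p = 7.1e-06). Gm5662 stood at 368 and 462 against 64.3 and 62.1 TPM (-2.69 ± 0.16; adjusted p = 1.1e-05), and Gm2016 at 161 and 199.5 against 21.1 and 22.2 TPM (-2.99 ± 0.20; adjusted p = 1.5e-05). In all 3 the groups lay far apart, with both mDKO libraries under both controls. Gm5039 stood at 208 and 261 against 53.5 and 46.8 TPM, Gm8300 at 131 and 149 against 22.7 and 26.2 TPM and BB287469 at 104 and 122 against 20.3 and 18.9 TPM. Their log2 fold changes lay between -2.47 and -2.20. Gm2022 stood at 68.5 and 68.9 against 11.5 and 13.7 TPM (log2 fold change -2.36 ± 0.23; adjusted p = 8.8e-05). Gm21319, whose promoter is printed and which was picked after its values were seen, had the lowest fold change of the run, -3.78 ± 0.31, at 47.0 and 50.1 against 2.15 and 3.16 TPM.

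The run on chromosome 10 from Gm4301 to Gm4312 was lower in all 6 members, and the run that holds Gm20765 in none of its 6. Gm4302 of the former stood at 122 and 144 against 20.5 and 28.5 TPM (-2.41 ± 0.24; adjusted p = 0.00012). Gm20765 and Gm21312, which share all values, stood at 194 and 148 against 36.1 and 30.6 TPM, a log2 fold change of -2.32 ± 0.87 with an adjusted p of 0.057. Both mDKO libraries lay under both controls. Gm6763 of the same run stood at 55.8 and 102 against 38.5 and 45.2 TPM (adjusted p = 0.22). Of the Pramel genes, A430089I19Rik stood at 270.3 and 289 against 83.9 and 71.1 TPM (-1.84 ± 0.12; adjusted p = 1.5e-05) and Gm13078 at 36.8 and 44.6 against 9.23 and 8.64 TPM (-2.06 ± 0.14; adjusted p = 1.5e-05). Pramef25 stood at 37.1 and 37.9 against 12.3 and 11.1 TPM (-1.60 ± 0.19; adjusted p = 0.00024), while Gm13043 overlapped, at 20.9 and 7.66 against 6.43 and 13.3 TPM (adjusted p = 0.68).

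Among members with symbols other than those of predicted genes or clones, the lowest fold change was that of Esp24, of the exocrine gland-secreted peptide family, at 30.2 and 40.3 TPM in control and 1.97 and 1.84 TPM in mDKO embryos (-3.63 ± 0.38; adjusted p = 0.00014). Rfpl4b, a ret-finger-protein-like RING gene, stood at 39.1 and 64.8 against 6.05 and 5.20 TPM (-2.96 ± 0.24; adjusted p = 3.9e-05). Ubtfl1, an HMG-box gene related to the RNA polymerase I factor UBTF, stood at 43.3 and 61.4 against 6.42 and 9.41 TPM (-2.58 ± 0.22; adjusted p = 5.2e-05). These 3 were lower in both mDKO libraries and changed by more than the spread of either group. Trim43b, a tripartite-motif gene, stood at 11.2 and 8.89 against 0.927 and 1.41 TPM (-2.35 ± 0.19; adjusted p = 3.9e-05). Ccdc42, a coiled-coil gene of the sperm tail, stood at 18.9 and 20.0 against 2.16 and 4.26 TPM, and Ddit4l, an inhibitor of mTOR signalling, at 11.8 and 15.0 against 2.11 and 2.78 TPM. Acy3, an aminoacylase, stood at 10.6 and 8.24 against 2.04 and 1.32 TPM, and LOC100502896, a placeholder symbol, at 51.1 and 42.6 against 5.60 and 7.74 TPM. Log2 fold changes of these 4 lay between -2.65 and -1.96, each with an adjusted p under the threshold.

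Zfp352 stood at 85.1 and 93.6 TPM in control and 25.5 and 22.6 TPM in mDKO embryos (-1.85 ± 0.11; adjusted p = 1.1e-05). AF067061 stood at 60.2 and 77.2 against 8.90 and 9.48 TPM (-2.76 ± 0.23; adjusted p = 4.1e-05). Spz1, a leucine-zipper transcription factor known from the testis, stood at 17.3 and 22.8 against 8.05 and 10.3 TPM (-1.05 ± 0.22; adjusted p = 0.0053). All 3 are textbook early 2-cell genes, and in each the groups did not overlap. BC061212 stood at 43.2 and 41.4 against 16.3 and 12.9 TPM (-1.48 ± 0.16; adjusted p = 0.00014) and BC080695 at 28.1 and 21.6 against 7.96 and 8.55 TPM (-1.47 ± 0.15; adjusted p = 0.00014). Crxos, still low at this stage, stood at 20.4 and 26.9 against 5.90 and 4.71 TPM (-1.96 ± 0.32; adjusted p = 0.0013). Suv39h1, named here after its values were seen, stood at 17.4 and 17.2 against 11.3 and 12.5 TPM, with a smaller log2 fold change of -0.51 ± 0.14 (adjusted p = 0.018). Tex101, a surface protein of germ cells, stood at 3.19 and 1.88 against 0.490 and 0.612 TPM and Hba-a1 at 6.72 and 2.34 against 0.819 and 0 TPM. Both reached 1 TPM only in the controls, so no test is read for them. Trim43c was also lower, but lost its call without mDKO mCherry replicate 1 (-0.63) or control mCherry replicate 2 (-0.61). Cyp2b23, a cytochrome P450 gene at 15.4 and 14.6 against 12.1 and 10.9 TPM, lost its call without any 1 of the 4, with values between -0.43 and -0.29.

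The 6 members that were higher in mDKO mCherry were Alyref2, Hist1h2ao, Thrsp, Rmi2, Fdx1l and Gm10069. Alyref2, an mRNA export adaptor, stood at 11.2 and 3.86 TPM in control and 76.9 and 68.2 TPM in mDKO embryos (3.25 ± 0.38; adjusted p = 0.00023). Thrsp, a thyroid-hormone-responsive gene of lipid synthesis, stood at 0.163 and 0 against 11.3 and 13.4 TPM. Both went the other way without injection, where Alyref2 stood at 58.1 and 68.8 TPM in control and 34.6 and 38.0 TPM in mDKO E2C, and Thrsp at 19.1 and 14.7 against 5.04 and 9.73 TPM. Hist1h2ao, a replication-dependent H2A gene with near-identical copies, was listed at 0 in both control mCherry libraries and stood at 18.8 and 12.4 TPM in mDKO mCherry, and at 63.2 and 50.5 against 66.1 and 49.0 TPM without injection. Rmi2 stood at 0.376 and 0.708 against 3.53 and 3.77 TPM. Hist1h2ao, Thrsp and Rmi2 reached 1 TPM only in mDKO of these groups, so no test is read for them. Counted by library order alone, both mDKO mCherry libraries lay below both controls for 98 members and above them for 12, where 36.9% and 42.3% of 10612 genes did so. In all, 84 members had both mDKO libraries below both controls in the uninjected and in the injected embryos, where 18.6% of 10214 genes did so, and 5 had them below without injection and above with it, where 7.03% did.

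Some members that were strong without injection were close to 0 in the injected controls. Both control mCherry libraries were under 1 TPM for 13 members, and the median member stood at 15.1 and 15.0 TPM there. Vaultrc5 was listed at 0 in both control mCherry libraries and Defb8, a beta-defensin, at 0 in all 8 injected E2C libraries. Uchl4 stood at 69.4 and 61.9 TPM in uninjected and 0.987 and 1.33 TPM in injected controls. The labels name a pair of SMART-Seq kits for E2C and 4C without saying which library had which, and name no kit for L2C, so injection, kit and run cannot be told apart between the tables. Vaultrc5 is a small RNA without a poly(A) tail, as are the RNAs of Rn4.5s, Rpph1 and Scarna13, which are also members. Uninjected and injected levels are therefore set side by side and not tested.

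Markers of other sources of RNA moved with the deletion in the same libraries. The 12 oocyte markers summed to 20984 and 21683 TPM in control mCherry and to 25702 and 25409 TPM in mDKO mCherry, with 8 higher and 1 lower. Of 15 cumulus and granulosa markers 7 were tested and 4 were higher, with sums of 85.6 and 78.0 TPM in control mCherry, 431 and 423 TPM in mDKO mCherry and between 236 and 259.8 TPM in the Kdm3aWT and Kdm3aHA groups. Of these 15 markers, 7 were at 0 in each control library and 4 and 3 in the mDKO mCherry libraries. None of the 7 tested was lower (0). Serpine2 alone held most of these sums, at 62.2 and 51.2 TPM in control and 312 and 307 TPM in mDKO mCherry. With Kdm3aWT it stood at 229.9 and 225 TPM and with Kdm3aHA at 218 and 234 TPM. Hsd3b1 stood at 0 in both control and both Kdm3aHA libraries, at 79.98 and 79.5 TPM in mDKO mCherry and at 5.68 and 1.47 TPM with Kdm3aWT. Blood markers summed to 8.71 and 5.36 TPM in control and 46.7 and 27.1 TPM in mDKO mCherry, with 2 of 4 tested higher and 1 lower. Lyz2 stood at 0.794 and 1.68 TPM in control and 30.6 and 18.0 TPM in mDKO mCherry, and Tyrobp at 0 in both against 14.0 and 8.25 TPM. With Kdm3aWT and Kdm3aHA Lyz2 stood at 0.315 and 0 and at 0.708 and 0 TPM, and Tyrobp at 0 throughout. The 10 sperm and spermatid markers summed to 34.6 and 47.9 TPM in control mCherry, 8.40 and 12.1 TPM in mDKO mCherry, 9.20 and 16.6 TPM with Kdm3aWT and 15.9 and 21.2 TPM with Kdm3aHA. Most of the control sums was Prm2 alone, at 31.4 and 43.2 TPM in control and 2.82 and 6.93 TPM in mDKO mCherry. Of the 4 tested 1 was higher and 1 lower in mDKO mCherry, and 5 of the 10 were at 0 in each control library and 5 and 4 in the mDKO mCherry libraries. Their part in the members' values was not tested.

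**Figure D2:**
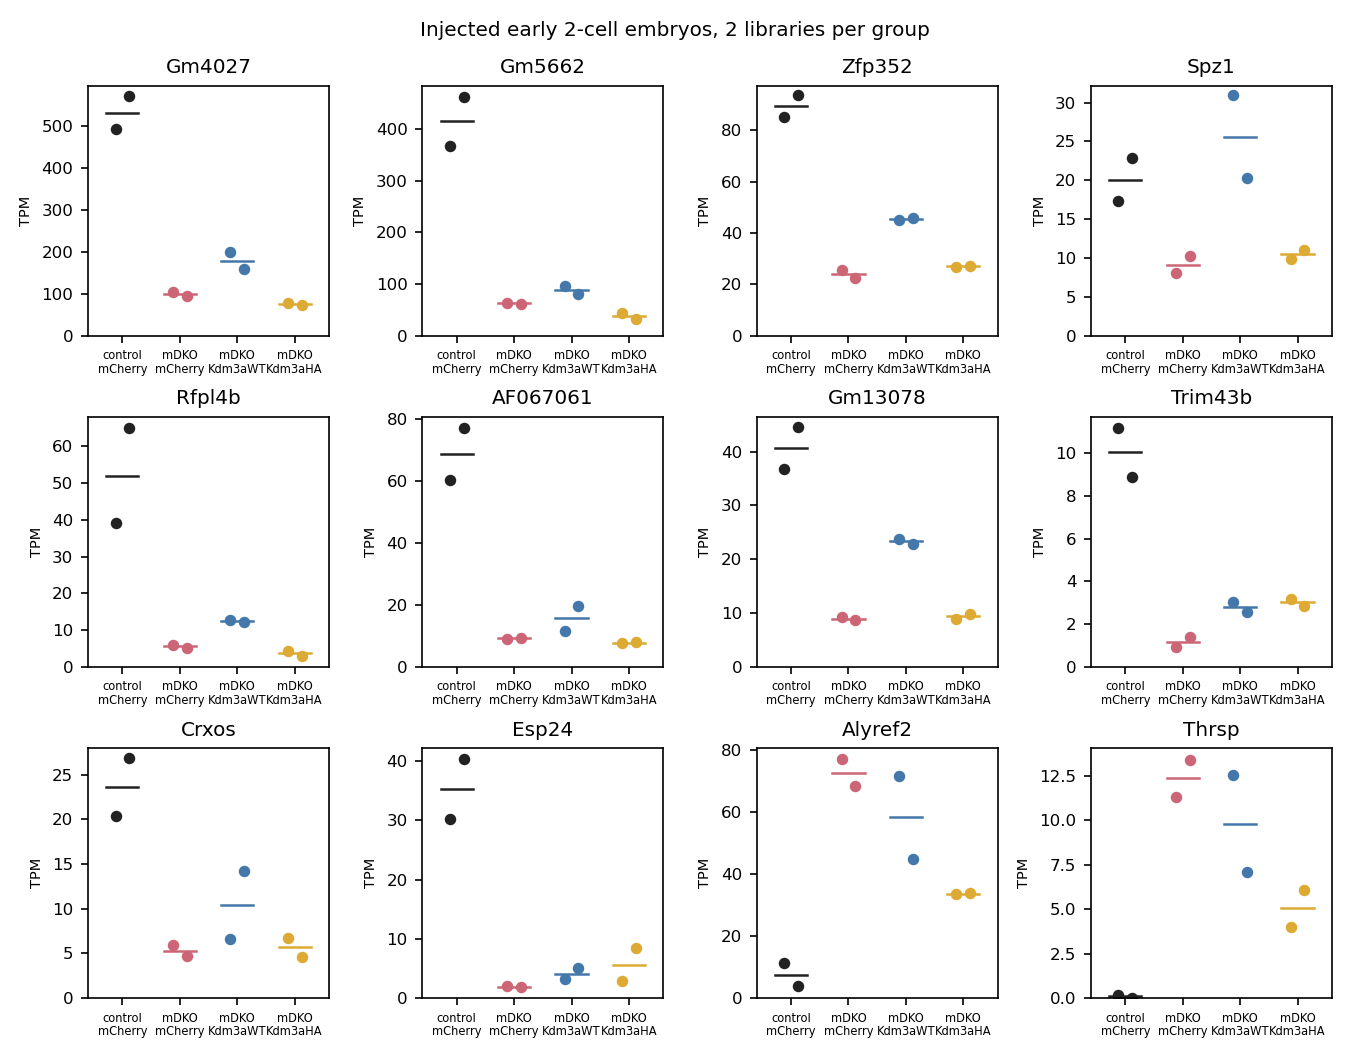
TPM of 12 members in the 8 injected E2C libraries; points are the 2 libraries of a group, bars their mean, each panel has its own axis from 0, and groups are control mCherry (black), mDKO mCherry (red), mDKO Kdm3aWT (blue) and mDKO Kdm3aHA (yellow). Of the 10 members that were lower in mDKO mCherry, Spz1 with Kdm3aWT reaches 31.0 and 20.3 TPM, both above the lower control library, while the others stay under both controls; Alyref2 and Thrsp are lowest in the control.

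Kdm3aWT and Kdm3aHA in mDKO embryos were compared with mCherry in mDKO embryos, and with each other. With Kdm3aWT 20 of 130 members tested were higher and 5 lower than with mCherry, where 0.949% of all genes tested were higher and 10.8% lower. Over the 121 members at 1 TPM or more in both groups, 20 were higher and 2 lower. The median over all genes lay at -0.19 and that over members at 0.03, and with a size-factor scaling that removes the shift 25 members were higher and 3 lower, against 310 and 571 of all genes. The call count rested on having both mDKO mCherry libraries: without either, fewer members and fewer of all genes were called higher. Without replicate 1 the median was 0.08 in members and -0.18 in all genes, and without replicate 2 it was -0.01 and -0.19. With Kdm3aHA 3 members were higher and 12 lower, where 1.54% and 9.29% of all genes were, and the medians were -0.08 in members and in all genes. Of the 116 members at 1 TPM or more in both groups, 3 were higher and 7 lower. Both comparisons use the same mDKO mCherry libraries.

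The direct comparison of the injected forms shares no library with mDKO mCherry. With Kdm3aWT 19 members were higher and 2 lower than with Kdm3aHA, where 1.32% and 1.97% of all genes tested were (3.29% in either direction), and the medians were 0.12 in members and -0.10 in all genes. Of the 116 members at 1 TPM or more with both forms, 18 were higher and 0 lower. These calls and those of mDKO mCherry against control mCherry came from 1 fit with 1 estimate of the spread, so they are not independent. Their overlap over all genes was not counted. Of 130 members tested, 76 were lower in mDKO mCherry than in control mCherry, and all 19 were among those 76, which is 25%. This count of 19 also rested on the settings, as did the 145 of all genes that were higher. It was 0 without a mean-dependent variance trend, where 1 of all genes was higher, and 2 with only these 4 libraries fitted, where 5 were. Both counts fell without Kdm3aHA replicate 1, Kdm3aHA replicate 2 or Kdm3aWT replicate 1, and rose without Kdm3aWT replicate 2. The member medians were then 0.35, 0.09, 0.14 and 0.23 in that order, beside -0.13, -0.07, -0.06 and -0.13 in all genes.

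Gm4027 stood at 199 and 159.8 TPM with Kdm3aWT and 79.0 and 72.9 TPM with Kdm3aHA (1.22 ± 0.13; adjusted p = 0.0093), beside 104 and 94.3 TPM with mCherry. Gm13078 stood at 23.9 and 22.8 TPM against 8.96 and 9.85 TPM (1.23 ± 0.14; adjusted p = 0.01). Rfpl4b stood at 12.8 and 12.1 TPM against 4.44 and 3.08 TPM (1.51 ± 0.24; adjusted p = 0.021). In these 3 both Kdm3aWT libraries lay above both Kdm3aHA libraries and stayed under both controls. Zfp352 stood at 45.2 and 46.0 TPM with Kdm3aWT and 26.6 and 27.4 TPM with Kdm3aHA (0.74 ± 0.11; adjusted p = 0.019). Spz1 stood at 31.0 and 20.3 TPM against 9.93 and 11.1 TPM (1.18 ± 0.22; adjusted p = 0.031), and its Kdm3aWT libraries overlapped the control range of 17.3 and 22.8 TPM. BC080695 stood at 16.6 and 18.1 TPM against 10.4 and 9.71 TPM (0.73 ± 0.15; adjusted p = 0.045). Of the Eif1a-like run 6 of 9 members were higher with Kdm3aWT than with Kdm3aHA, among them Gm8300 at 63.5 and 44.3 against 22.6 and 20.0 TPM. In Gm4027, Rfpl4b, Gm8300, Gm5662, Gm2016, Gm2022, A430089I19Rik and BC061212 part or all of the difference lay in the Kdm3aHA group, where both libraries lay under both of mDKO mCherry. Gm2016 stood at 9.67 and 7.80 TPM with Kdm3aHA, 21.1 and 22.2 TPM with mCherry and 19.4 and 28.7 TPM with Kdm3aWT. BC061212 stood at 7.81 and 6.29, 16.3 and 12.9, and 14.0 and 13.1 TPM in the same order. In both genes the Kdm3aWT libraries overlapped those with mCherry.

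Other members did not separate the forms. AF067061 stood at 11.6 and 19.8 TPM with Kdm3aWT and 7.64 and 8.002 TPM with Kdm3aHA (adjusted p = 0.073), and Ubtfl1 at 15.4 and 15.9 against 8.45 and 6.32 TPM (adjusted p = 0.0516). Neither pair of groups overlapped, but the differences did not pass the test. Trim43b was higher than with mCherry in both, at 3.04 and 2.58 TPM with Kdm3aWT and 3.20 and 2.86 TPM with Kdm3aHA, and the forms differed by -0.08 ± 0.19. Esp24 stood at 3.14 and 5.06 against 2.84 and 8.42 TPM, and Crxos at 6.64 and 14.2 against 6.76 and 4.59 TPM, both overlapping. Gm20765 varied within both groups, at 11.9 and 84.9 and at 93.9 and 18.9 TPM. Acy3 stood at 2.04 and 1.32 TPM with mCherry, 0.178 and 0.163 TPM with Kdm3aWT and 0.200 and 0.611 TPM with Kdm3aHA. Against control mCherry, mDKO embryos with Kdm3aWT had 82 members lower and 5 higher, where 29.6% and 17.0% of all genes were, with medians of -0.87 in members and -0.17 in all genes. Over the 120 members at 1 TPM or more in both groups, 77 were lower and 2 higher.

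Late 2-cell embryos had been used for the split but not for the choice of members, and mDKO L2C libraries for neither. All 140 members were tested at L2C. In mDKO 52 were higher and 26 lower than in control, where 19.1% and 23.3% of all 12606 genes tested were, and the median log2 fold change was 0.41 in members and 0.00 in all genes. Within the split, which the control L2C libraries set, 36 members below it were higher and 3 lower, and 16 members above it were higher and 23 lower. Those 4 counts are a description, since a low value in the control L2C libraries favours both the place below the split and a higher ratio.

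Of the Eif1a-like run, 8 of 9 members were higher in mDKO L2C, with a median log2 fold change of 1.79. Gm4027 stood at 210.3 and 129 TPM in control and 1195 and 1115 TPM in mDKO L2C (2.80 ± 0.21; adjusted p = 0.00024). Gm5039 stood at 68.0 and 42.5 against 284 and 239.6 TPM (2.26 ± 0.22; adjusted p = 0.00045). Gm5662 stood at 343 and 266 against 912 and 721 TPM (1.42 ± 0.16; adjusted p = 0.00078). The groups did not overlap in any of the 3, and the order was the reverse of that at E2C. Gm16381, the 1 member of the run that did not pass, stood at 1664 and 1192 against 1704 and 1875 TPM (adjusted p = 0.13). AF067061 stood at 68.7 and 51.4 against 415 and 385 TPM (2.73 ± 0.16; adjusted p = 0.00016), and BC080695 at 16.3 and 9.56 against 56.6 and 60.3 TPM (2.14 ± 0.24; adjusted p = 0.00072). The run with Gm20765 was higher in 6 of 6 members, with Gm20765 at 12.1 and 48.3 against 178 and 179.7 TPM (2.82 ± 0.52; adjusted p = 0.0052) and Gm6763 at 68.7 and 48.6 against 257 and 216 TPM (2.01 ± 0.18). The run from Gm4301 to Gm4312, in contrast, had none of its 6 members called in either direction, with Gm4302 at 2.26 and 9.56 against 3.36 and 1.95 TPM. Zfp352 stood at 105 and 78.7 against 161 and 161 TPM (0.82 ± 0.16; adjusted p = 0.0059), Pramef25 at 49.3 and 42.7 against 85.1 and 78.2 TPM (0.82 ± 0.14) and Gm13043 at 36.6 and 27.4 against 97.4 and 147 TPM (1.88 ± 0.23). Gm13078 at 82.1 and 74.5 against 141 and 100.1 TPM (0.59 ± 0.18) lost its call without mDKO replicate 1 (0.35) or either control library (0.66 without replicate 1 and 0.53 without replicate 2).

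With GATTNAATC in the promoter window searched, 9 of 10 members were higher in mDKO L2C and none lower, where 47.1% of 17 other genes with these letters tested at L2C were higher and 11.8% lower. With TAATCC 14 of 19 members were higher and 2 lower, where 19.2% of 567 other genes were higher and 29.1% lower. Of the 80 members whose promoter held neither set of letters, 21 were higher and 17 lower. Of 8888 other genes with neither, 18.8% were higher and 23.3% lower. Of the 10 members with GATTNAATC 5 belong to the run with Gm20765, and 9 of the 10, those 5 included, also hold TAATCC, so neither the members nor the sets are separate cases. At E2C, 4 of those 10 and 13 of the 19 were lower in mDKO mCherry, beside 39 of 73 tested with neither. Among other genes, 41.2% of 17 with GATTNAATC, 26.0% of 469 with TAATCC and 19.1% of 7819 with neither were lower. In the same order 23.5%, 22.4% and 27.2% were higher, against 0, 0 and 4 of the members.

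Named members outside the textbook list that were higher in mDKO L2C included Vaultrc5 at 129 and 192 against 530.1 and 403 TPM (1.55 ± 0.21; adjusted p = 0.0015) and Cyp2b23 at 2.05 and 2.63 against 8.12 and 8.23 TPM (1.46 ± 0.23; adjusted p = 0.0027). Defb8 stood at 12.6 and 7.31 against 22.5 and 30.3 TPM (1.35 ± 0.27), Ddit4l at 23.0 and 15.7 against 39.5 and 44.8 TPM (1.10 ± 0.21) and LOC100502896 at 72.3 and 100.2 against 175 and 192 TPM (1.10 ± 0.17). LOC100862015 had a high fold change, 2.02 ± 1.67, from libraries that disagreed within each group, 16.6 and 0.164 TPM in control and 98.9 and 2.38 TPM in mDKO, and did not pass (adjusted p = 0.37). Alyref2 at 27.5 and 25.4 against 40.9 and 38.4 TPM was higher by 0.57 ± 0.15, but not without either mDKO library (0.52 without replicate 1 and 0.61 without replicate 2) or control replicate 2 (0.51).

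By at least 2-fold, 12 members were lower in mDKO L2C. Hba-a1 stood at 183 and 312 TPM in control and 28.9 and 28.9 TPM in mDKO L2C (-3.00 ± 0.24; adjusted p = 0.00026). It is also 1 of the 10 blood markers, which summed to 309 and 359.8 TPM in control and 67.6 and 331 TPM in mDKO L2C, with 0 higher and 2 lower of 4 tested. In mDKO replicates 1 and 2, Lyz2 stood at 6.25 and 204.6 TPM and Tyrobp at 0 and 40.2 TPM, both markers of myeloid cells, beside 4.53 and 4.02 TPM and 0 in both controls. Without mDKO replicate 2, 48 members were higher and 21 lower at L2C. Tex101 stood at 320.4 and 342 against 54.0 and 80.9 TPM (-2.31 ± 0.19; adjusted p = 0.00029). Snhg20, a host gene of a small nucleolar RNA, stood at 238 and 271 against 64.8 and 61.5 TPM (-1.99 ± 0.12; adjusted p = 0.00019). In these 3 both mDKO libraries lay far under both controls. Crxos stood at 3826 and 3276 against 1163 and 1042 TPM (-1.68 ± 0.12; adjusted p = 0.0002), Trim43b at 731 and 624 against 408 and 316 TPM (-0.91 ± 0.15; adjusted p = 0.0033) and Trim43c at 285 and 209.9 against 177 and 115 TPM. Trim43c lost its call without mDKO replicate 2 (-0.46) or control replicate 1 (-0.55). Atf7ip2, Bex6 and Suv39h1, named after their values were seen, were lower, with log2 fold changes of -1.30 ± 0.19, -1.19 ± 0.12 and -0.61 ± 0.17. A430089I19Rik was lower as well, at 35.7 and 36.5 against 25.3 and 18.3 TPM, but not without mDKO replicate 2 (-0.50) or either control library (-0.74 without replicate 1 and -0.70 without replicate 2), and Ccdc42, at 4.32 and 4.01 against 1.75 and 2.25 TPM, not without any 1 of the 4 (-0.91 to -0.67). Hist1h2ao, at 703 and 576 against 496 and 493 TPM, had an adjusted p of 0.0498 and lost its call without either mDKO library (-0.37 without replicate 1 and -0.36 without replicate 2) or control replicate 1 (-0.22). Rfpl4b, Ubtfl1, Spz1, Esp24 and Acy3 did not pass, with log2 fold changes from -0.68 to 0.05.

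**Figure D3:**
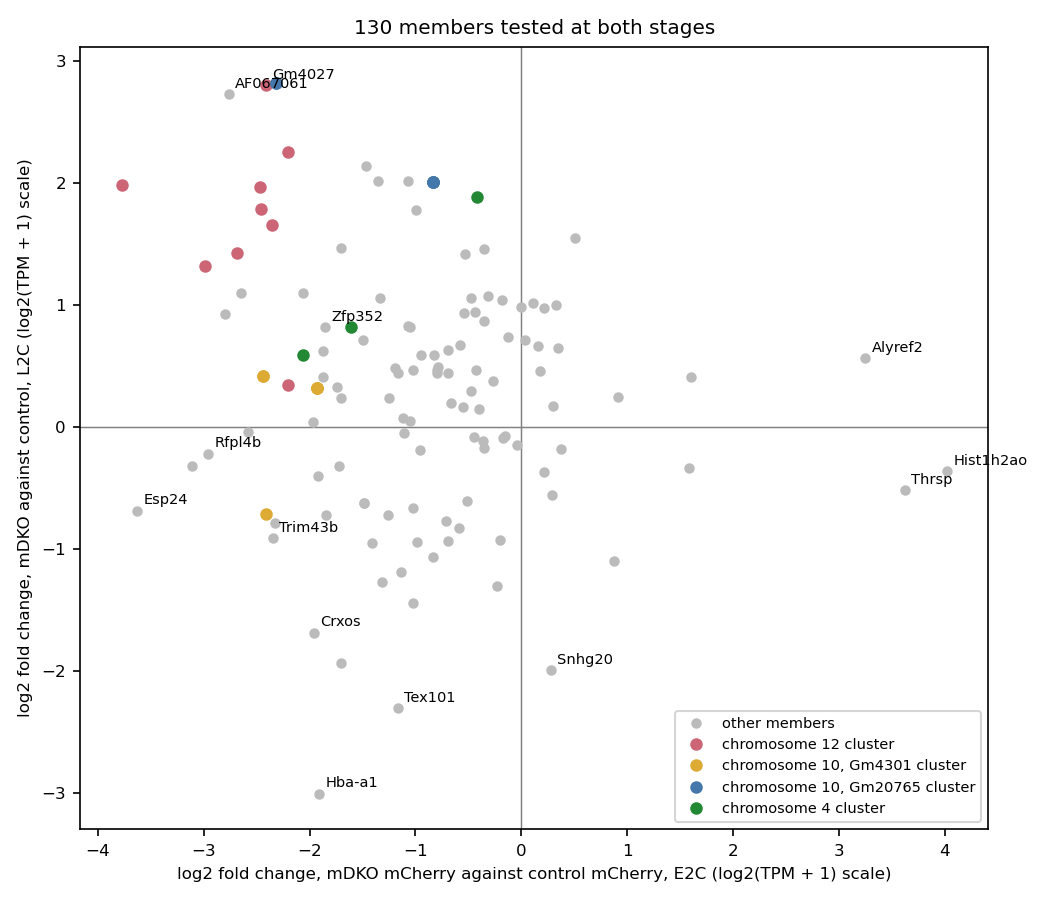
Log2 fold changes of mDKO against control for the 130 members tested at both stages, injected E2C on the x axis and uninjected L2C on the y axis, which share no library; coloured points are the 4 runs of neighbouring members. Most of the chromosome 12 run lies at the upper left, at -2.20 or less at E2C and at 1.32 or more at L2C, with Gm16381 lower at 0.34, while Crxos, Tex101 and Hba-a1 lie at the lower left.

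Of the 76 members lower in injected mDKO E2C, 26 were higher, 17 lower and 33 not called in mDKO L2C. The 26 make up 34.2% of the 76 and 50% of the 52 members higher at L2C, and the 17 make up 22.4% of the 76 and 65.4% of the 26 lower at L2C. Of all 140 members 37.1% were higher and 18.6% lower at L2C, and of the 2068 genes lower in injected mDKO E2C and tested at L2C, 21.6% were higher and 22.7% lower. In the same L2C libraries the 12 oocyte markers summed to 5650 and 4953 TPM in control and 14367 and 15333 TPM in mDKO embryos, with 10 higher and 1 lower. Of 10 markers of major activation 9 were lower and 1 higher, summing to 1710.1 and 1722 TPM in control and 885.5 and 838 TPM in mDKO embryos. All 18 early 2-cell markers were tested, and 12 were higher and none lower. Cumulus and granulosa markers summed to 51.3 and 51.6 TPM in control and 146 and 107 TPM in mDKO L2C, with 2 of 6 tested higher and 0 lower. Sperm and spermatid markers summed to 62.0 and 80.8 against 36.2 and 34.6 TPM, with 0 of 5 tested higher and 2 lower. Ldhc alone held most of these sums, at 44.9 and 55.6 against 20.6 and 19.6 TPM. The part that these shifts have in the members' values was not tested.

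Within mDKO embryos, 81 of 140 members were higher and 29 lower at L2C than at E2C, where 33.3% and 21.8% of all 12372 genes tested were. Their median log2 fold change was 1.16, against 0.09 in all genes. The labels name no kit for L2C, so stage, kit and run cannot be told apart here or in the controls that set the split. Gm4027 rose from 72.5 and 72.2 to 1195 and 1115 TPM and AF067061 from 13.7 and 13.3 to 415 and 385 TPM in mDKO embryos, although both lie below the split, which means that their control means were lower at L2C. In control embryos the same genes went from 431 and 630.0 to 210.3 and 129 TPM and from 76.7 and 99.2 to 68.7 and 51.4 TPM. A430089I19Rik fell in mDKO embryos, from 58.3 and 58.3 to 25.3 and 18.3 TPM, and Gm4302 from 8.85 and 21.5 to 3.36 and 1.95 TPM, as in the controls. Of members below the split 24 rose and 29 fell in mDKO embryos, and of those above it 57 rose and none fell. B020004C17Rik, named after its values were seen, had the largest rise of the 140 members in this comparison, 8.24 ± 0.25, from 1.25 and 2.72 to 926 and 825 TPM. From MII to E2C in mDKO, 138 members passed the filter, 115 of them at 1 TPM or more in both E2C libraries and in no MII library, so that they had to differ; 135 were higher, where 35.9% of all genes were (77.6% changed in either direction), and nothing is read from that count.

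At 4C, in wild-type embryos, 42 members did not pass the filter, 36 of them from below the split. Crxos stood at 5382 and 7746 TPM with mCherry, 4786 and 5119 TPM with Kdm3aWT and 5775 and 4594 TPM with Kdm3aHA. Trim43b stood at 1544 and 966 TPM, 1956 and 2267 TPM and 2154 and 1998 TPM in the same order. For Trim43c the values were 504 and 150.4, 440.4 and 558 and 557 and 335 TPM. These 3, with Hist1h2ao (304 and 559 TPM with mCherry) and Esp24, were the highest at 4C among members with symbols other than those of predicted genes or clones. Gm4027 was down to 49.96 and 1.02 TPM with mCherry, 68.0 and 37.3 TPM with Kdm3aWT and 6.59 and 14.1 TPM with Kdm3aHA, and AF067061 to 0.568 and 0.507, 15.8 and 1.77 and 0 and 5.02 TPM. A430089I19Rik was under 2 TPM in all 6 libraries.

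**Figure D4:**
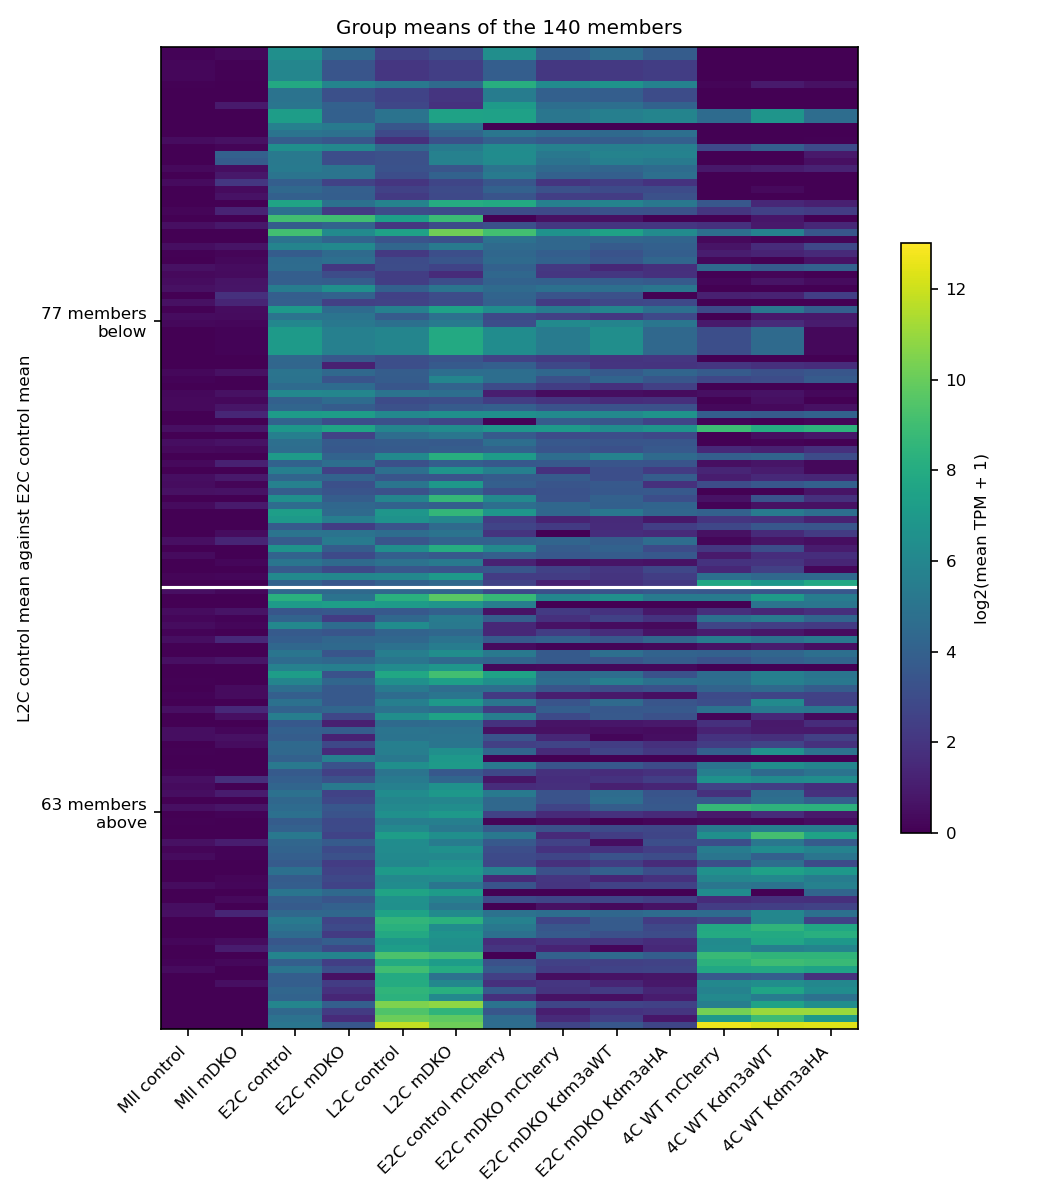
Group means of the 140 members as log2(mean TPM + 1), 1 row per member and 1 column per group, rows ordered by the change from control E2C to control L2C with the white line at the split. Most rows near the top are dark at 4C, and the lowest rows, which include Crxos and Trim43b, are brightest at L2C and 4C.

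No member was called at 4C with limma: 0 of 98 for Kdm3aWT and 0 of 98 for Kdm3aHA against mCherry, and 0% of 9669 genes were. Kdm3a itself stood at 21.8 and 6.24 TPM with mCherry, 108 and 53.4 TPM with Kdm3aWT and 70.5 and 161 TPM with Kdm3aHA at 4C. In Kdm3aHA replicates 1 and 2, the myeloid markers Lyz2 and Tyrobp stood at 214 and 1.11 TPM and at 37.2 and 0 TPM. At an unadjusted p under 0.05 there were 27 members and 776 genes with Kdm3aWT, and 3 members and 264 genes with Kdm3aHA. The median over all genes lay at 0.44 with Kdm3aWT and 0.35 with Kdm3aHA, and the member medians at 0.51 and 0.06. Size-factor scaling, which removes the shift of all genes, moved the member medians to 0.09 and -0.27 and gave no call. Without 4C mCherry replicate 1, 21 of 97 members were called with Kdm3aWT and 2 with Kdm3aHA, all higher, where 451 of 9501 genes were higher and 40 lower with Kdm3aWT and 20 and 1 with Kdm3aHA. The 4C mCherry libraries differed from each other: the median member stood at 4.91 TPM in replicate 1 and 1.13 TPM in replicate 2, and 8879 and 7649 genes reached 1 TPM. Esp24 stood at 72.2 and 101 TPM with mCherry, 455 and 642 TPM with Kdm3aWT and 164 and 213 TPM with Kdm3aHA, with no overlap among the 3 groups. Rfpl4b stood at 6.51 and 4.34 TPM with mCherry, 101 and 23.5 TPM with Kdm3aWT and 0 and 9.47 TPM with Kdm3aHA, and Ubtfl1 overlapped between mCherry and Kdm3aHA.

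A pair of lists put the members beside other genes of the same wave. Of 49 textbook early 2-cell genes in the tables, which include 16 members and the families left out of the rule, 38 were lower and 2 higher of 46 tested in mDKO mCherry against control mCherry. Over all genes tested there, 20.0% were lower and 26.9% higher. With Kdm3aWT against mCherry 19 were higher and 2 lower, with Kdm3aHA 2 were higher and 5 lower, and with Kdm3aWT against Kdm3aHA 20 were higher and 1 lower. In the same order, 0.949%, 1.54% and 1.32% of all genes were higher and 10.8%, 9.29% and 1.97% lower. At L2C 27 of 47 were higher in mDKO and 3 lower, where 19.1% and 23.3% of all genes were. Of 15 genes of the left-out families that met the TPM rule, other than small RNAs, 15 were lower in mDKO mCherry, and 8 were higher and 2 lower in mDKO L2C. Zscan4c, a SCAN-domain zinc finger gene of the 2-cell wave, stood at 262 and 312 TPM in control mCherry and 44.6 and 51.2 TPM in mDKO mCherry, and Dux at 20.0 and 20.8 against 13.9 and 15.2 TPM. With Kdm3aWT Zscan4c stood at 90.4 and 109.8 TPM and Dux at 6.25 and 6.69 TPM. With Kdm3aHA they stood at 24.4 and 39.1 TPM and at 7.46 and 6.51 TPM. Dux thus lay under both mDKO mCherry libraries with either form. Of 28 regulators of genome activation, 26 were tested at injected E2C and 13 were lower and 7 higher in mDKO mCherry. Over all genes tested, 20.0% were lower and 26.9% higher. At L2C 12 of the 28 were lower and 9 higher, where 23.3% and 19.1% of all genes were. Crxos is the only member among the regulators. Obox3, whose family binds the TAATCC type of letters, stood at 25.03 and 23.4 TPM in control mCherry and 6.66 and 5.87 TPM in mDKO mCherry, and Dppa2, an activator of Dux, at 164 and 172 against 66.1 and 65.3 TPM. The regulators given with values here, Zscan4c, Dux, Obox3 and Dppa2, all stood lower in mDKO mCherry, and none of the 7 higher is named. Their part in the members' values was not tested.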

How the data were processed

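Poly(A) RNA was sequenced in 26 libraries, 2 in each of 13 groups. TPM per gene and library were deposited by the authors in 3 tables of 24412 gene symbols. Of software, RSEM 1.3.1, STAR 2.7.10b, SAMtools 1.9 and Bowtie2 2.3.4.1 appear in the submitters' processing notes, with the build mm10 and no roles; gene annotation, filters and strand setting were not stated. The kits, per the labels' protocols, were TruSeq Stranded mRNA at MII and, at E2C and 4C, SMART-Seq v4 or its successor, with no list by library and none for L2C. TPM keeps no depth, so sequencing depth is unknown and counting error cannot be given. All columns matched 1 sample by name; 0 columns were left out.

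Tests were run on log2(TPM + 1) with limma 3.58.1 under R 4.3.3 (lmFit, eBayes with a mean-dependent trend, two-sided), on genes at 1 TPM or more in at least 2 libraries of the fit, with Benjamini-Hochberg adjustment over all genes tested and calls at an adjusted p under 0.05. The 8 injected E2C and the 6 injected 4C libraries each shared a fit; the other comparisons used their 4 libraries. The fit was tested on simulated data. With 2 against 2 libraries no exact permutation test can go below 0.333. Errors after ± are SEs. Pairs of TPM values are replicates 1 and 2.

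Named members were the 10 highest in control mCherry; among symbols other than those of predicted genes or clones (LOC placeholders kept) the 8 lowest and 4 highest fold changes at injected E2C, the 4 highest and 4 lowest at L2C and the 5 highest at 4C; members of the textbook list; and members just inside the threshold. Other genes named (Gm16381, Gm21319, Suv39h1, Atf7ip2, Bex6, B020004C17Rik, Gm11236, Uchl4, Omd, Rn4.5s, Rpph1, Scarna13, Fdx1l, Gm10069, Epb4.1l4aos and Rpl31-ps12) and the markers Lyz2, Tyrobp, Serpine2, Hsd3b1, Prm2 and Ldhc were chosen after their values were seen. The members and lists were chosen with earlier results of these data known. Zscan4c, Dux, Obox3 and Dppa2 were named from the lists by no set rule. Alternatives were a pseudocount of 0.1, no filter, size-factor scaling, eBayes without a trend, other sets of libraries in the fit, a replicate block, leaving out each library and, added after seeing the data, 1 member per set of identical values. Coordinates, promoters and gene matches come from NCBI RefSeq (GRCm38.p6, the assembly of mm10) and exons and coding sequences from GENCODE M21.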

Additional observations from a re-analysis of the deposited data

Results flagged for a closer look

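For 48 members both mDKO mCherry libraries lay below both control mCherry libraries at E2C, and both mDKO libraries lay above both controls at L2C, where 14.2% of the 10218 genes tested at both stages did so. The difference between the stages was not tested, and the E2C embryos had been injected and the L2C embryos had not. The opposite order, higher in both mDKO libraries at E2C and lower at L2C, was seen in 5 members and in 14.6% of the same 10218 genes, also untested. At L2C their log2 fold changes were -1.09 for Epb4.1l4aos, -0.34 for Fdx1l, -0.36 for Hist1h2ao, -1.44 for Rpl31-ps12 and -1.99 for Snhg20. Rpl31-ps12 was under 1 TPM in all injected E2C libraries with mCherry.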

How the results depend on the processing

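The member median changed sign in 5 of the alternatives run. With size-factor scaling it went from -0.08 to 0.01 with Kdm3aHA against mCherry at E2C and from 0.06 to -0.27 at 4C. At 4C with Kdm3aHA it was -0.34 without Kdm3aHA replicate 2 and -0.19 without mCherry replicate 2, and with Kdm3aWT against mCherry at E2C it was -0.01 without mDKO mCherry replicate 2. The members lower in mDKO mCherry numbered between 60 and 65 on leaving out 1 library and those lower with Kdm3aWT against control mCherry between 63 and 73. At L2C the leave-one-out counts lay between 40 and 54 higher and between 21 and 25 lower. The Kdm3aWT and Kdm3aHA comparisons depended most on the setting. Over all genes, 104 were higher with Kdm3aWT than with mCherry in the main fit, 69 with no filter and 62 without a trend. In the same order, 145, 12 and 1 of all genes were higher with Kdm3aWT than with Kdm3aHA. Members higher with Kdm3aWT than with mCherry were 10 with no filter, 13 without a trend and between 2 and 12 on leaving out 1 library; with Kdm3aHA they were 0 with no filter and between 0 and 2. Members higher with Kdm3aWT than with Kdm3aHA were 3 with no filter, 0 without a trend, 2 with only the 2 groups fitted and between 0 and 26 on leaving out 1 library. From MII to E2C in mDKO the leave-one-out counts lay between 17 and 133, because the filter then left few members to test. From E2C to L2C in mDKO they lay between 19 and 29 lower and between 71 and 82 higher. At 4C, where no member was called, 1 was called with only the 2 groups fitted in each of the Kdm3aWT and Kdm3aHA comparisons, and leaving out 1 library gave between 0 and 21 and between 0 and 2. Apart from the causes stated, the cause was not tested. With 1 library left in a group, that library is assumed to vary like the other groups.

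Same-numbered libraries share only a number: their deviations correlated between -0.116 and 0.187, and at L2C by 0.0502. With the replicate block 76 members were lower in mDKO mCherry, 18 were higher with Kdm3aWT than with mCherry, 4 with Kdm3aHA, 19 with Kdm3aWT than with Kdm3aHA, and 5 were called at 4C with Kdm3aWT. With 2 libraries per group and no counts, small differences were not detectable.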
